A study of Mus musculus with 34 samples.

Results

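T cells from doxorubicin-treated mouse mammary tumours were compared between mice given both anti-PD1 and anti-CTLA4 (the combination) and mice given anti-CTLA4 alone. A barcode counted as a T cell with at least 500 unique molecular identifiers (UMIs, counted RNA molecules), 200 genes, under 20% mitochondrial UMIs, at least 2 UMIs of Cd3d, Cd3e and Cd3g together, and under 2 UMIs each of the epithelial gene Krt18 and the myeloid gene Lyz2. This left 2974 T cells of the combination and 2575 of anti-CTLA4, 5549 cells of the 46386 barcodes in the single-cell tables of the series.

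The tumours came from the MMTV-Wnt1 model, in which the mammary tumour virus promoter drives the Wnt1 oncogene, and were transplanted into C57BL6j mice. All of these mice first received 5 doses of doxorubicin, a DNA-damaging chemotherapy drug, at 4 mg/kg. In the combination group, 200 ug anti-PD1 and 200 ug anti-CTLA4 followed 48 h later and were given 3 times at 72 h intervals. In the anti-CTLA4 group, 200 ug anti-CTLA4 was given on the same schedule together with 200 ug control IgG. Tumours were taken 24 h after the last antibody dose, digested, and CD4/8-positive cells were pulled out magnetically, so the comparison asks what anti-PD1 added to anti-CTLA4. Each group is 1 library, and the labels do not say whether a library is 1 animal or a pool. There is therefore no replicate error, no p-value is given, and all intervals are 95% exact intervals that cover counting error only. They are too narrow where few cells hold most UMIs of a gene. A treatment effect and a difference between 2 tumours or 2 preparations cannot be told apart. T cells of 4 other libraries stand beside as levels only: anti-PD1 with IgG, IgG alone, tumours taken 48 h after doxorubicin, and untreated tumours.

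PD1 and CTLA4 are inhibitory receptors of activated T cells. CTLA4 competes with the activating receptor CD28 for its ligands and is abundant on regulatory T cells, whereas PD1 dampens signals of the T cell receptor and of CD28 once its own ligands are bound. CD8 T cells kill target cells with perforin and granzymes, and helper CD4 T cells act largely through cytokines.

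The 2 libraries were alike in size and depth. The combination had 3668 barcodes and anti-CTLA4 had 3655, and the T cells had medians of 10318 and 10321 UMIs, and of 2578.5 and 2687 genes. Their T cells summed to 38.7 and 34.3 M UMIs. T cells made up 81.1% of combination barcodes and 70.5% of anti-CTLA4 barcodes. Below the Cd3 limit lay 391 combination barcodes and 652 anti-CTLA4 barcodes, and a further 86 and 218 passed it but held Krt18 or Lyz2. At the limit of 2 Cd3 UMIs were 29 combination and 30 anti-CTLA4 cells, and 62 and 52 barcodes lay just outside at 1 UMI. The median T cell held 32 Cd3 UMIs in the combination and 29 in anti-CTLA4. Cells were selected on these genes, so the medians show only how far the typical cell lay above the limit. No cell of one library had the same counts as a cell of the other, and barcode lists were not used here. RNA of other cells differed between the libraries: summed over the T cells, 5 tumour epithelium markers stood at 21.7 CPM (UMIs per 1e6) in the combination and 70.9 CPM in anti-CTLA4, and 4 fibroblast markers at 1.27 and 95.5 CPM.

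Most genes stood at similar levels in the 2 libraries, and more genes were lower than higher with both antibodies. A gene was past the fold when its mean level was at least 20 CPM, its ratio of combination over anti-CTLA4 was at least 1.5 or at most its inverse, and the counting interval of the ratio excluded 1. Of 5065 genes at that level, 38 (0.75%) were higher and 112 (2.21%) were lower past the fold. Scaling by the median ratio of genes in place of total UMIs gave 51 higher and 82 lower, so the balance of the 2 directions depends on the scaling. The median gene had a log2 ratio of -0.09, with the middle 50% of genes between -0.23 and 0.06. A ratio of at least 2 was met by 3 of the 38 genes, and a ratio of at most the inverse of 2 by 25 of the 112. Set against all 6 T cell libraries, anti-CTLA4 held the lowest level for 20 of the 38 higher genes and the highest for 86 of the 112 lower genes. The combination held the highest level for 16 of the 38 and the lowest for 33 of the 112. These genes were picked on the levels of the same 2 libraries, so such ranks, here and for single genes below, are partly built in. The same shares over all 5065 genes were not counted. Without the 10 cells of each library that held most of a gene's UMIs, 37 of the 38 and 96 of the 112 ratios were still past 1.5-fold. Among cells without a UMI of the 9 tumour and fibroblast markers, 26 of the 38 and 79 of the 112 were. With equal makeup of the marker gates described next, 21 of the 38 and 103 of the 112 were.

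**Figure D1:**
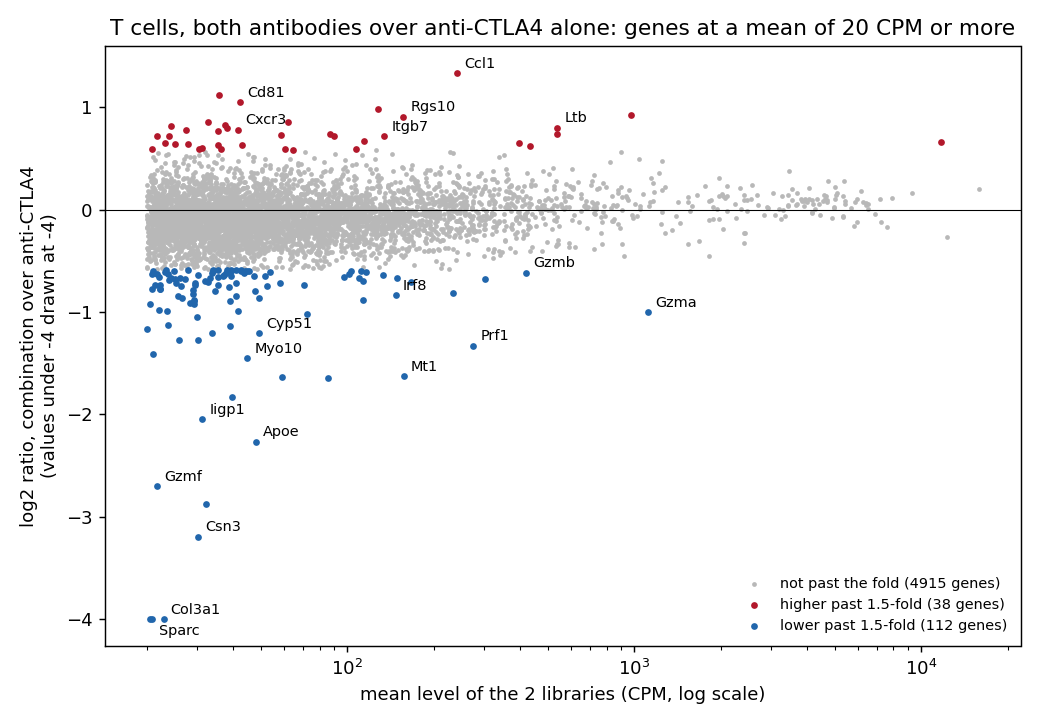
Each point is 1 of 5065 genes at a mean of 20 CPM or more in T cells, with the mean level of both libraries on a log x axis and the log2 ratio of combination over anti-CTLA4 on the y axis. The 38 genes higher past 1.5-fold, in red, stay below a log2 ratio of 1.5, with Ccl1 on top at 1.33, while the 112 lower genes, in blue, reach past -4 for Col3a1 and Sparc, which are drawn at -4.

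The makeup of the T cells was compared with gates on single genes. Cells with Cd8a or Cd8b1 and no Cd4 UMI were 80.1% of combination T cells (78.6 to 81.5%) and 86.6% of anti-CTLA4 T cells (85.2 to 87.9%). With every cell thinned to 2000 UMIs, the shares were 75.1% (73.5 to 76.6%) and 76.4% (74.7 to 78.1%), with overlapping intervals. Thinning also raised the share of cells with no gate gene, from 3.03 to 16.4% (combination) and from 3.57 to 19.4% (anti-CTLA4). The median depths were alike before thinning, so the thinned overlap cannot decide whether the CD8 shares differ. Cells with Foxp3, the master transcription factor of regulatory T cells, and no Cd8 UMI were 67 cells or 2.25% (1.75 to 2.85%) of the combination and 15 cells or 0.583% (0.326 to 0.959%) of anti-CTLA4. Thinned, the shares were 1.57% (1.15 to 2.08%) and 0.275% (0.111 to 0.566%), so the intervals of the 2 libraries did not overlap at either depth. The anti-CTLA4 library had the lowest regulatory share of the 6, which had 7.34% with anti-PD1, 4.97% with IgG, 2.89% at 48 h after doxorubicin and 12.1% untreated. In the thinned barcodes with no Cd3 UMI that held Krt18 or Lyz2, Foxp3 was seen in 0 of 152 of the combination, which allows a share of up to 1.97% as 3 counts or 2.40% by the exact interval, and in 0.375% of 267 of anti-CTLA4. The thinned Foxp3 share of all T cells, 2.04% in the combination and 0.747% in anti-CTLA4, lies under the exact upper limits of 2.40 and 2.07%. With so few barcodes this check cannot tell the share from background. At all UMIs Foxp3 was in 0 of 175 such barcodes of the combination, against 4.67% of its T cells, and in 0.277% of those of anti-CTLA4, against 1.67% of its T cells. Within the regulatory gate, Foxp3 stood at 208 CPM in the combination and 243 CPM in anti-CTLA4, Ctla4 at 529 and 402 CPM, and Il2ra, the high-affinity interleukin-2 receptor chain, at 289 and 502 CPM, from 67 and 15 cells. Ikzf2, another regulatory T cell marker, stood at 845 and 1084 CPM there, against 174 and 163 CPM in the CD8 gate.

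Conventional CD4 cells, with Cd4 and neither Cd8 nor Foxp3, were 244 cells or 8.20% (7.24 to 9.25%) of the combination and 173 cells or 6.72% (5.78 to 7.75%) of anti-CTLA4. Thinned, they were 5.38% (4.59 to 6.25%) and 3.38% (2.71 to 4.16%). In the thinned other barcodes Cd4 was found in 5.92% of the combination, against 6.63% of its T cells, and in 1.12% of anti-CTLA4, against 3.73% of its T cells. The Cd4 share of the combination's T cells lies inside the exact interval of its other barcodes (2.74 to 10.9%). Cd8a or Cd8b1 was found in 2.63% of those barcodes, against 76.1% of the T cells. Whether their Cd4 RNA was their own or came from T cells was not tested, so no difference in the CD4 share is read from these values. Cd40lg, the helper signal to B cells, stood at 84.7 CPM in the combination and 65.4 CPM in anti-CTLA4 in this gate, against 1.46 and 0.737 CPM in the CD8 gate. The gate also held cytotoxic RNA, with Nkg7 at 1233 and 849 CPM, in 174 and 115 of its cells, and the chemokine gene Ccl5 at 963 and 605 CPM. Cells with both Cd4 and Cd8 UMIs were 6.15% of the combination and 2.52% of anti-CTLA4 and had high medians of 14866 and 16234 UMIs. Thinned, they were 1.02% and 0.354%. At least 2 UMIs of the division genes Mki67 and Top2a were found in 25.1% of combination T cells (23.5 to 26.6%) and 27.7% of anti-CTLA4 T cells (26.0 to 29.5%), or thinned in 7.11% (6.21 to 8.10%) and 8.76% (7.69 to 9.93%), with overlapping intervals.

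**Figure D2:**
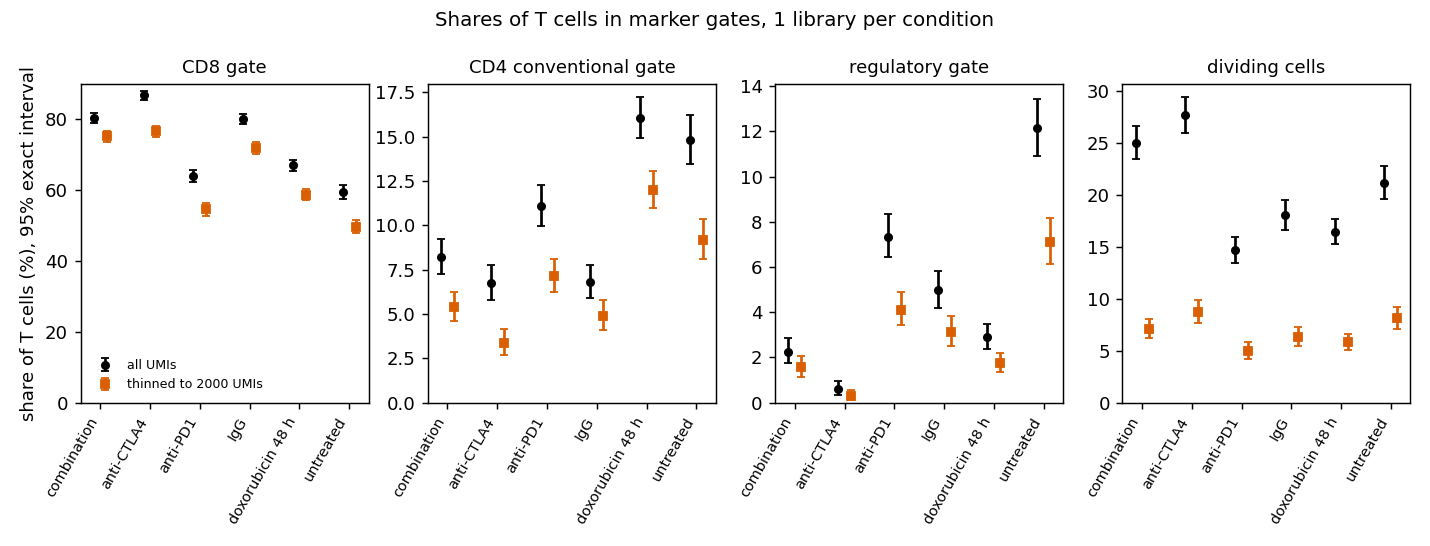
Shares of T cells in 3 marker gates and of dividing cells, in percent with 95% exact intervals, for each of the 6 libraries, at all UMIs (black circles) and with cells thinned to 2000 UMIs (orange squares). The combination lies above anti-CTLA4 in the regulatory gate at both depths (2.25 and 1.57% against 0.583 and 0.275%), while the CD8 shares overlap thinned but not at all UMIs.

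The genes of the 2 antibody targets were not past the fold. Pdcd1, which encodes PD1, stood at 225 CPM in the combination and 198 CPM in anti-CTLA4, a ratio of 1.14 (1.10 to 1.17), and Ctla4 at 259.7 and 217 CPM, a ratio of 1.20 (1.16 to 1.23). Both were the same way in the CD8 gate (Pdcd1 at 235 and 206 CPM, Ctla4 at 248 and 218 CPM). RNA levels say nothing of how much receptor was covered by antibody. All 7 measured genes of the list of targets, ligands and CD28 family members had ratios above 1 without passing the fold, among them Cd28 (235 and 182 CPM) and Pdcd1lg2, a PD1 ligand (52.1 and 40.4 CPM).

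Other inhibitory receptors did not move one way. Of 9 measured, 3 had ratios above 1 and 6 below, and none was past the fold. Havcr2, which encodes TIM-3 and marks exhausted cells, stood at 50.5 CPM in the combination and 75.4 CPM in anti-CTLA4, a ratio of 0.670, just short of the fold. In the CD8 gate it was past the fold, at 50.7 and 80.5 CPM. Vsir, which encodes VISTA, stood at 54.5 and 39.2 CPM. Among 13 regulators of exhaustion, Maf was past the fold, with Tox at 113 and 105 CPM and Nr4a1, an immediate target of receptor signals, at 214 and 164 CPM. Maf stood at 43.1 and 27.8 CPM, but its log2 ratio of 0.63 was 0.21 with equal gate makeup. Of 10 costimulatory TNF receptors and ligands, none was past the fold over all T cells, while in the CD8 gate Tnfsf11, which encodes RANKL, stood higher at 119 and 79.2 CPM and Tnfrsf9, which encodes the costimulatory receptor 4-1BB, lower at 233 and 360 CPM.

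Genes of the cytotoxic granule were among the lower genes. Prf1, which encodes the pore-forming perforin, stood at 156 CPM in the combination and 392 CPM in anti-CTLA4, a ratio of 0.398 (0.386 to 0.410). Gzma, which encodes granzyme A, stood at 742 and 1486 CPM, a ratio of 0.4997 (0.493 to 0.507), and Gzmb, which encodes the caspase-activating granzyme B, at 331 and 508 CPM, a ratio of 0.652 (0.637 to 0.667). Serpinb9, an inhibitor of granzyme B that protects the killer cell, stood at 84.4 and 134 CPM, and its relative Serpinb6b at 115 and 183 CPM. The sixth gene, Gzmf, stood at 5.76 and 37.6 CPM, and 10 cells held 83.4 and 79.0% of its UMIs.

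Of 17 measured cytotoxic genes these 6 were lower past the fold and none was higher, yet the median log2 ratio of the list was 0.05. The remaining members stood at or above their anti-CTLA4 level or slightly under it. Gzmk, a granzyme of early effector cells, stood at 79.8 CPM in the combination and 61.8 CPM in anti-CTLA4, and Ifng, the main cytokine of CD8 cells, at 336 and 376 CPM, without passing the fold. Gzmb lost its place with another scaling (log2 ratio -0.56), with equal gate makeup (-0.55) and in cells without tumour or fibroblast markers (-0.57), whereas Prf1 and Gzma had ratios of 0.482 and 0.492 in those cells. Serpinb6b had a ratio of 0.673, just short of the fold, without the 10 cells that held most of its UMIs.

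The lower cytotoxic levels were also seen as fewer cells with the RNA at equal depth. In CD8-gate cells thinned to 2000 UMIs, Prf1 was detected in 17.4% (15.8 to 18.9%) of the combination and 26.0% (24.2 to 27.9%) of anti-CTLA4, Gzma in 16.5% (15.0 to 18.02%) and 26.1% (24.3 to 28.0%), and Gzmb in 27.7% (25.9 to 29.6%) and 35.7% (33.7 to 37.8%). Nkg7, a granule protein of cytotoxic cells, was found in 93.3 and 91.0% of them. The other barcodes held Prf1 in 0 of 152 in the combination, which allows up to 1.97% as 3 counts or 2.40% by the exact interval, and in 0.749% of anti-CTLA4. Across the other libraries Prf1 stood at 39.7 CPM with anti-PD1, 253 CPM with IgG, 47.2 CPM at 48 h after doxorubicin and 30.9 CPM untreated, so the 2 antibody libraries compared here lie on either side of IgG. Gzma stood at 1123, 1261, 471 and 1675 CPM in the same libraries. Markers of natural killer cells, which also use these granzymes, summed to 1265 CPM in the combination and 2006 CPM in anti-CTLA4. Gzma made up the larger part of both sums. The other 2 of these markers at 20 CPM or more had log2 ratios of 0.008 and 0.017, so the lower sum rests on Gzma. Their receptor gene Ncr1 had 2 and 1 UMIs in the CD8 gate.

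Of secreted cytokines and chemokines, 4 of 17 measured genes were higher past the fold and none was lower, with a list median of 0.21. Within the CD8 gate the list median was -0.04, with 2 of 14 genes higher, where 0.658% of all genes were. In the CD4 gate it was 0.47, with 8 of 19 higher and 3 lower, where 2.32 and 5.41% of all genes were. Over all T cells Ccl1, a chemokine of activated T cells that signals through CCR8, stood at 345 CPM in the combination and 137 CPM in anti-CTLA4, a ratio of 2.52 (2.44 to 2.60). Its level was 464 CPM at 48 h after doxorubicin, 209.6 CPM untreated, 163 CPM with anti-PD1 and 154 CPM with IgG, so it was not highest in the combination. Ltb, which encodes the membrane lymphotoxin beta needed for lymphoid tissue, stood at 683 and 392 CPM, a ratio of 1.74 (1.71 to 1.78), against 395 to 462 CPM in the other 4 libraries. In thinned CD8-gate cells Ltb was found in 65.4% (63.4 to 67.3%) of the combination and 49.7% (47.6 to 51.8%) of anti-CTLA4, with 1.32 and 1.498% in the other barcodes. Lta, its soluble partner, stood at 29.6 and 18.01 CPM, but its ratio was 1.38 with equal gate makeup, no longer past the fold, and 0.813 in the CD4 gate. Tnf, of the same superfamily, stood at 28.1 and 19.3 CPM without passing the fold.

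Il13, a type 2 cytokine, was carried by few cells. It stood at 48.0 CPM in the combination and 27.0 CPM in anti-CTLA4, a ratio of 1.78 (1.64 to 1.92), from 218 and 90 cells with a UMI, and 10 cells held 52.0 and 60.04% of its UMIs. In the CD4 gate it was not higher (255 and 340 CPM), while in the CD8 gate 70 combination cells and 16 anti-CTLA4 cells held 375 and 25 UMIs. With cells weighted equally its log2 ratio of 0.83 became 0.48, and with equal gate makeup 0.36. Gata3, the transcription factor of type 2 cells, stood at 70.1 and 58.8 CPM.

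Of 16 homing and residency genes 3 were higher past the fold and none was lower, with a median of 0.25. Cxcr3, the receptor for interferon-induced chemokines, stood at 52.4 CPM in the combination and 30.6 CPM in anti-CTLA4. Ccr2, a receptor for monocyte chemokines that effector T cells also carry, stood at 30.9 and 17.5 CPM, though its log2 ratio was 0.57, short of the fold, with thinned cells. Itgb7, an integrin chain that pairs for gut and epithelial adhesion, stood at 167 and 101 CPM, and its partner Itgae at 55.8 and 39.1 CPM without passing. For all 3 called genes anti-CTLA4 was the lowest of the 6 libraries, and the highest was untreated, at 61.6 CPM for Cxcr3, 45.9 CPM for Ccr2 and 196 CPM for Itgb7.

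Further higher genes were Rgs10, a brake on G protein signals (204 CPM in the combination and 109 CPM in anti-CTLA4), Cd81, a tetraspanin (57.0 and 27.6 CPM), and Abcg1, a cholesterol efflux pump (44.5 and 26.2 CPM). Tff1 stood at 108 and 64.9 CPM and Krt83 at 34.6 and 20.2 CPM. Cd4 itself stood at 48.8 and 22.5 CPM. Il1r2, a decoy receptor for interleukin-1, stood at 77.8 and 51.9 CPM, and the first of 2 NF-kB feedback genes, Nfkbiz, at 128 and 85.2 CPM, with Nfkbid at 72.8 and 48.3 CPM. With equal gate makeup Cd4, Tff1, Il1r2, Nfkbiz and Nfkbid were no longer past the fold (log2 ratios of 0.43, 0.51, 0.26, 0.53 and 0.56). AY036118, Gm42418 and Lars2, of which the first 2 overlap ribosomal RNA sequence, were also higher: AY036118 stood at 1279 and 674 CPM. Totals without these 3 genes gave 36 higher and 107 lower genes.

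**Figure D3:**
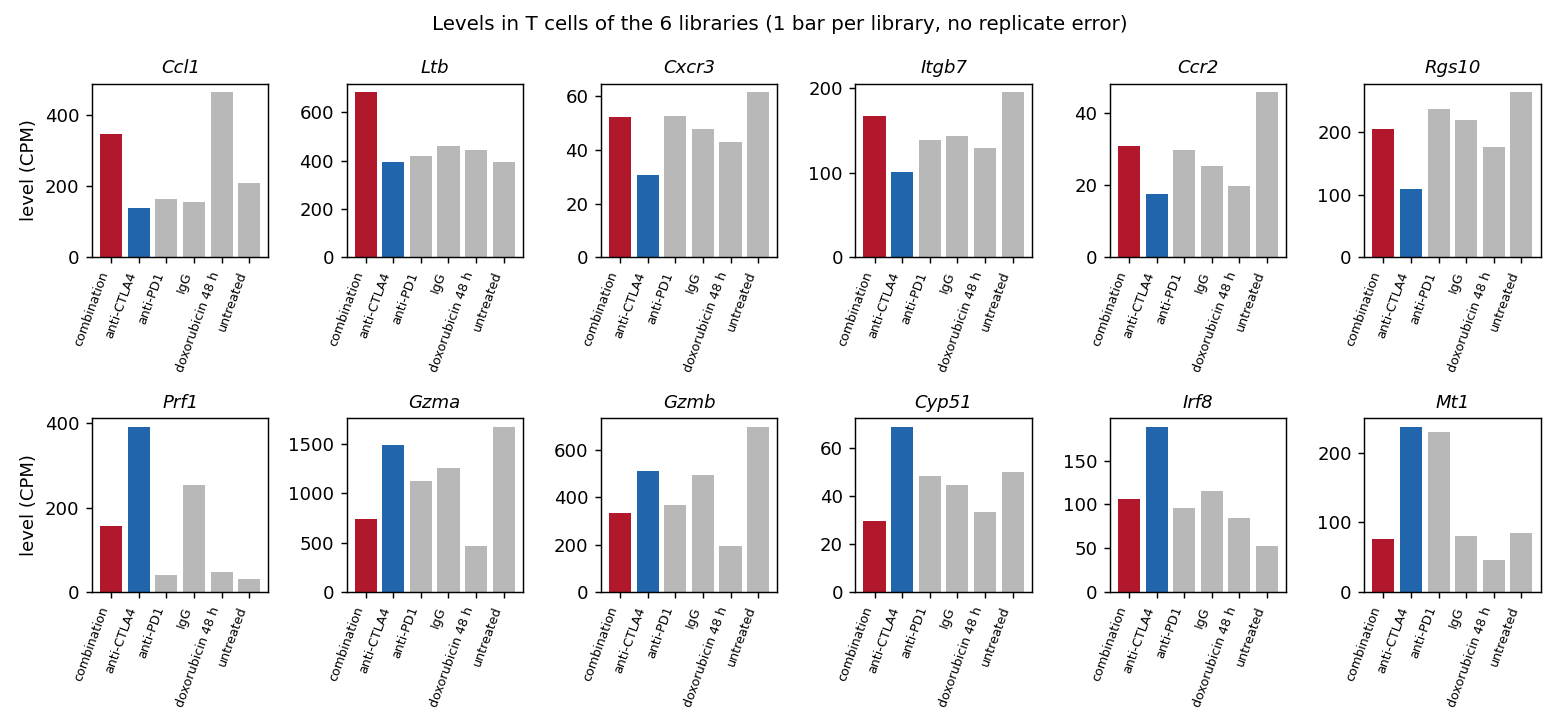
Levels in CPM of 6 higher genes (top row) and 6 lower genes (bottom row) in T cells of the 6 libraries, 1 bar per library, with the combination in red and anti-CTLA4 in blue. Anti-CTLA4 is the lowest bar for all 6 genes of the top row, and the highest for Prf1, Cyp51, Irf8 and Mt1 but not for Gzma and Gzmb, where untreated cells stand higher.

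Interferon-responsive genes were mostly lower with both antibodies. Of 21 measured type I interferon genes 5 were lower past the fold and none was higher, with 19 of 21 ratios below 1 and a median log2 ratio of -0.42. Of 25 interferon-gamma response genes 6 were lower and none was higher, with 22 below 1 and a median of -0.30, against -0.09 for all genes. Ifit3, which restrains viral RNA, stood at 16.4 CPM in the combination and 28.05 CPM in anti-CTLA4, and Ifit1, of the same family, at 18.6 and 27.9 CPM. Xaf1, an interferon-induced promoter of apoptosis, stood at 22.2 and 33.4 CPM, Ifi208 at 15.4 and 26.4 CPM, and Irf9, a subunit of the interferon-activated transcription factor, at 27.3 and 40.9 CPM. Xaf1 lay so near the limit that 8 of the 12 alternatives tried on it left it outside.

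Among interferon-gamma genes, Irf8, a transcription factor of effector CD8 cells, stood at 106 CPM in the combination and 189 CPM in anti-CTLA4, a ratio of 0.560 (0.539 to 0.583). The guanylate-binding proteins, which attack membranes of intracellular pathogens, followed, with Gbp2 at 33.9 and 51.02 CPM, Gbp6 at 31.1 and 50.9 CPM and Gbp9 at 15.96 and 26.6 CPM. The immunity-related GTPase gene Irgm1 stood at 16.7 and 27.7 CPM and Iigp1 at 12.2 and 50.3 CPM, where 10 anti-CTLA4 cells held 53.8% of the Iigp1 UMIs. The level with IgG was above the combination for Ifit3, at 42.7 CPM, and for Ifi208, at 33.3 CPM.

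Part of this RNA was more frequent outside T cells. In the thinned other barcodes Ifit3 was found in 8.55% of the combination and 12.7% of anti-CTLA4, against 2.89 and 5.07% of T cells, and Gbp2 in 44.1 and 61.8%, against 6.57 and 9.74% of T cells. Among T cells without a tumour or fibroblast marker UMI, which were 76.6% of the combination and 56.2% of anti-CTLA4, the ratio was 0.805 for Gbp2, 0.742 for Irgm1 and 0.680 for Gbp6, no longer past the fold, but 0.583 for Ifit3, 0.579 for Irf8 and 0.572 for Iigp1. Without the 10 cells holding most UMIs of a gene, Gbp2 (0.722) and Irgm1 (0.683) were short of the fold, and so were Gbp2 (0.677) and Ifit1 (0.714) with equal gate makeup. The part of RNA from other cells in the interferon results was otherwise not tested. MHC class I presentation genes, which interferon also induces, did not share the lower levels: none of 18 was past the fold, the median was near 0, and H2-K1 stood at 2782 and 2354 CPM.

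Promoters of the lower interferon genes are shown because several hold the interferon-stimulated response element. The element was searched as TTTCNNTTTC on both strands in 300-base RefSeq promoters of build GRCm38.p6, which run from before to just after each gene start. Of the 11 lower interferon genes 8 had an entry, and 5 of them held the element (Gbp2, Ifi208, Ifit1, Ifit3 and Irgm1), against 3.44% of all 32851 promoters. The genes come from interferon lists, and listed genes that were not lower were not counted apart. The share therefore says nothing about why these genes were lower. A match describes the sequence and is no evidence of binding. Capitals mark the element in the following 3 promoters.
Ifit3, chr19:34583279-34583578, plus strand: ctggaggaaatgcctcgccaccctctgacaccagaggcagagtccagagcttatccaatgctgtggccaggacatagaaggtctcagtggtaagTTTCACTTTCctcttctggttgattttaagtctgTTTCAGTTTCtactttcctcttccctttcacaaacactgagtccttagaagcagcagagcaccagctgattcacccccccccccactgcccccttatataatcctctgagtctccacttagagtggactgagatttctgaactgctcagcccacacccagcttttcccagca
Gbp2, chr3:142620413-142620712, plus strand: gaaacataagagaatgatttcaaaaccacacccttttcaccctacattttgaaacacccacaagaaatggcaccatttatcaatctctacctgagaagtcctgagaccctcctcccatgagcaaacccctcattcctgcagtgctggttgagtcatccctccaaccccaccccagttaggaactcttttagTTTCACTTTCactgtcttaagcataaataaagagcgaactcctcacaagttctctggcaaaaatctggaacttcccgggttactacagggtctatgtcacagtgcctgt
Irgm1, chr11:48871371-48871670, minus strand: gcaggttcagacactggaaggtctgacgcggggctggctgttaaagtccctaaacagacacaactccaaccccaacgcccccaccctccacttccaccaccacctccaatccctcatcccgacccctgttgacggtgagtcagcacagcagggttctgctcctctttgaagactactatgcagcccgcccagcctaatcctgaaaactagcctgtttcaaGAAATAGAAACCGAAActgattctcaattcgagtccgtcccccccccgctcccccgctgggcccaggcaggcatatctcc
The Ifit3 window holds 2 copies of the element before the gene start, and that of Irgm1 holds overlapping copies that read on the other strand.

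Genes of cholesterol synthesis had the lowest median of all 30 lists with biological names. Of 11 measured, 6 were lower past the fold, none was higher and 10 had ratios below 1, with a median log2 ratio of -0.60. Idi1, which isomerizes the isoprene unit, stood at 17.7 CPM in the combination and 42.8 CPM in anti-CTLA4, a ratio of 0.412 (0.376 to 0.452). Cyp51, which demethylates lanosterol, stood at 29.8 and 68.8 CPM, a ratio of 0.433 (0.403 to 0.465), and Fdps, which makes farnesyl diphosphate, at 24.3 and 53.4 CPM, a ratio of 0.455 (0.420 to 0.492). Hmgcs1, which makes HMG-CoA, stood at 21.0 and 37.1 CPM, and the regulators Insig1 and Srebf2 at 18.4 and 28.0 CPM and at 31.4 and 47.5 CPM. Anti-CTLA4 held the highest level of Idi1, Cyp51 and Fdps of the 6 libraries, at 42.8, 68.8 and 53.4 CPM against 16.1 to 49.9 CPM in the 4 others over these genes.

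The sterol result held within both lineages, with 6 of 11 genes lower past the fold in the CD8 gate and 5 of 10 in the CD4 gate. It was also as large in cells without tumour or fibroblast markers, with ratios of 0.391 for Idi1, 0.429 for Cyp51 and 0.498 for Fdps. The sterol regulatory element bound by SREBP proteins was searched as TCACNCCAC on both strands of the same promoters. It was held by Hmgcs1 of the 5 lower sterol genes with an entry, and by 1.24% of all promoters. Sterol genes that were not lower were not counted apart here either. The Hmgcs1 promoter is shown with the element in capitals.
Hmgcs1, chr13:119690101-119690400, plus strand: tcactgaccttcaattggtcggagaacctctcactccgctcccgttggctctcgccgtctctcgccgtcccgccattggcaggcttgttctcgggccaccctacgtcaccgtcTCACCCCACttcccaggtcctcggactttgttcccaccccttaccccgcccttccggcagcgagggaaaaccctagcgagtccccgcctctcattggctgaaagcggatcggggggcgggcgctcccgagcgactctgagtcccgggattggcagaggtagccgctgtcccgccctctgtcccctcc

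Genes of the S phase list and of the G2 and M phase list stood slightly lower over all T cells without passing the fold. Of 22 S phase genes 21 had ratios below 1, with a median of -0.24, and of 19 G2 and M phase genes 17, with a median of -0.21, and none of either list was past the fold. Mcm4, a subunit of the replicative helicase, stood at 41.0 CPM in the combination and 60.4 CPM in anti-CTLA4, and the mitotic kinesin gene Cenpe at 33.8 and 47.3 CPM. Within the CD8 gate 2 of 22 S phase genes were lower past the fold, where 2.57% of all genes were. In the CD4 gate 5 of 23 were, against 5.41% of all genes. Over all T cells, 5 histone genes, on neither list, were among the 112 lower genes, with ratios of 0.376 for Hist1h2an and 0.567 for Hist1h1b. How many histone genes were measured was not counted. All 13 mitochondrially encoded genes had ratios below 1, with a median of -0.34, and mt-Nd6 was past the fold at 25.3 and 44.0 CPM. The median mitochondrial share per cell was 3.18% in the combination and 3.66% in anti-CTLA4. Glycolysis genes had a median of -0.16 with none of 17 past the fold, and 33 cytosolic ribosomal protein genes a median of 0.08 with none past it.

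Most other functional lists held no gene past the fold. Of 22 immediate early genes of receptor activation, Ier3 was lower at 29.3 CPM in the combination and 52.7 CPM in anti-CTLA4, and Jund stood at 1076 and 727 CPM. Of 27 T cell receptor signalling genes none was past the fold, with Rasgrp1, which links the receptor to Ras, at 42.9 and 30.4 CPM. None was past the fold among 11 p53 targets, 18 apoptosis genes, 12 heat shock and dissociation genes, 6 killer lectin-like receptors, 11 regulatory T cell genes, 5 follicular helper genes or 5 MHC class II genes. Ier3 was not past the fold with cells weighted equally (log2 ratio -0.38) or thinned (-0.21).

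**Figure D4:**
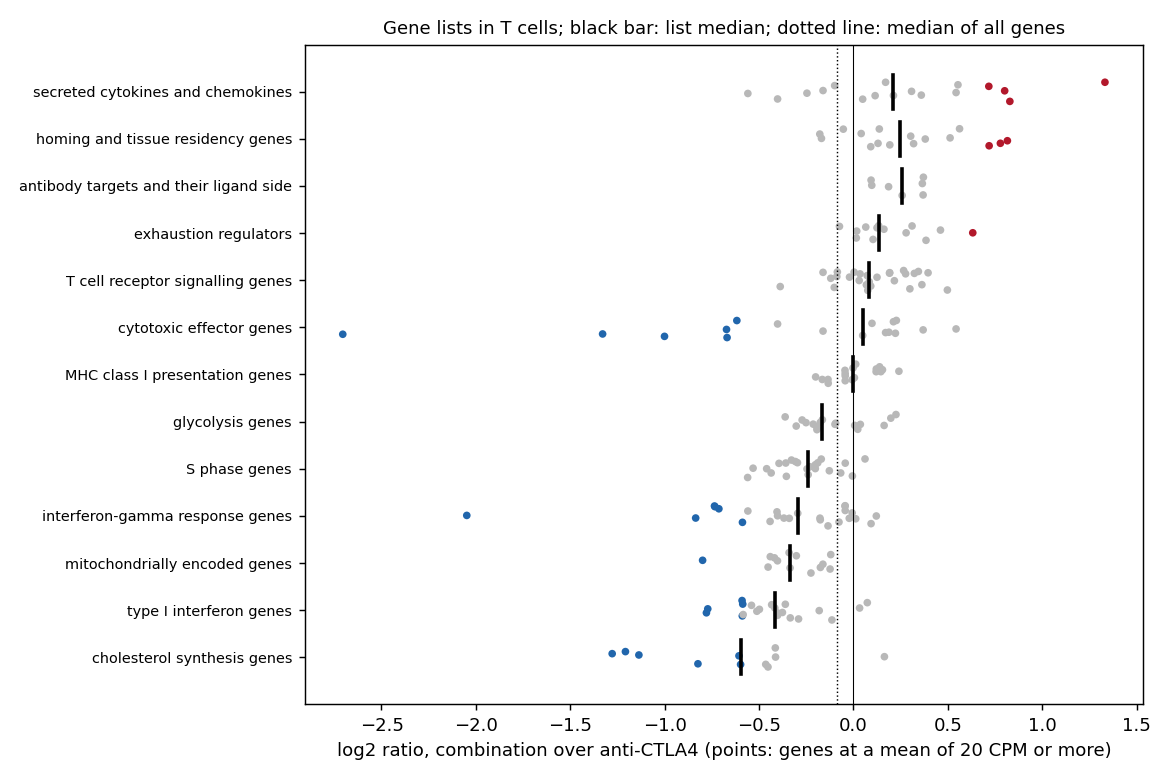
Log2 ratio of combination over anti-CTLA4 for the members of 13 gene lists at a mean of 20 CPM or more, 1 point per gene, in red or blue where past 1.5-fold, with a black bar at each list's median and a dotted line at the median of all genes (-0.09). List medians run from 0.26 for the antibody targets to -0.60 for cholesterol synthesis, and the 6 lower cytotoxic genes lie apart from the rest of their list.

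Most genes past the fold over all T cells were so within the CD8 gate too. In its 2383 combination and 2229 anti-CTLA4 cells, 33 of 5014 genes (0.658%) were higher and 129 (2.57%) lower past the fold. Of the genes past the fold in all T cells that could be judged there, 25 of 31 higher and 90 of 104 lower ones were past it in this gate too. The gate supplied 30.9 of the 38.7 M UMIs of the combination and 29.8 of the 34.3 M of anti-CTLA4. Much of this overlap was therefore fixed in advance. Krt83 (30.2 CPM in the combination and 12.1 CPM in anti-CTLA4), Ccl1 (246 and 99.1 CPM), Rgs10 (189 and 91.5 CPM) and Ccr2 (32.3 and 16.1 CPM) were among the highest ratios here, leaving out receptor segments and predicted genes. Lgals7 (5.63 and 53.04 CPM), Gzmf (4.95 and 42.7 CPM), Csn3, Lcn2 and Iigp1 were the lowest. Klf2, a transcription factor of resting cells, was past the fold in this gate alone, at 158 and 101 CPM, with 151 and 101 CPM over all T cells.

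The CD4 conventional gate held 244 combination and 173 anti-CTLA4 cells, or 2.80 and 1.99 M UMIs, so counts of calls there cover more counting noise. Of 5134 genes 119 (2.32%) were higher and 278 (5.41%) lower past the fold. Of the genes past the fold in all T cells, 8 of 35 higher and 41 of 77 lower ones were past it here. Serpine2, a protease inhibitor, stood at 92.9 CPM in the combination and 26.2 CPM in anti-CTLA4, and Ltb4r1, the receptor for the attractant leukotriene B4, at 70.7 and 12.6 CPM, from 29 and 10 cells with a UMI. Cxcl2 stood at 48.6 and 12.1 CPM, but 1 combination cell held 86 of its 136 UMIs. Klrc1, an inhibitory lectin-like receptor gene, stood at 43.9 and 16.6 CPM and AI467606 at 30.7 and 11.6 CPM.

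Lower in the CD4 gate were Ly6c2, an effector surface antigen (10.0 CPM in the combination and 68.9 CPM in anti-CTLA4), Gzmb (11.4 and 42.8 CPM), Xaf1 (12.5 and 40.2 CPM) and Gzmc (35.7 and 113 CPM), of which 1 anti-CTLA4 cell held 169 of 225 UMIs. Few cells had a UMI of the others: 13 combination and 26 anti-CTLA4 cells for Ly6c2, 14 and 28 for Gzmb, and 31 and 43 for Xaf1. In anti-CTLA4, 3 cells held 64 of the 137 Ly6c2 UMIs and 3 held 44 of the 85 Gzmb UMIs. Type I interferon genes were lower past the fold in 9 of 18 cases in this gate, where 5.41% of all genes were, and in 2 of 21 cases in the CD8 gate, where 2.57% of all genes were. The difference between the gates was not tested. Prf1 had too low a level in the CD4 gate to be judged (12.9 and 6.54 CPM). Of the genes past the fold in all T cells and measured in both gates, 20 of 28 higher and 58 of 73 lower ones had ratios on the same side of 1 in both.

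**Figure D5:**
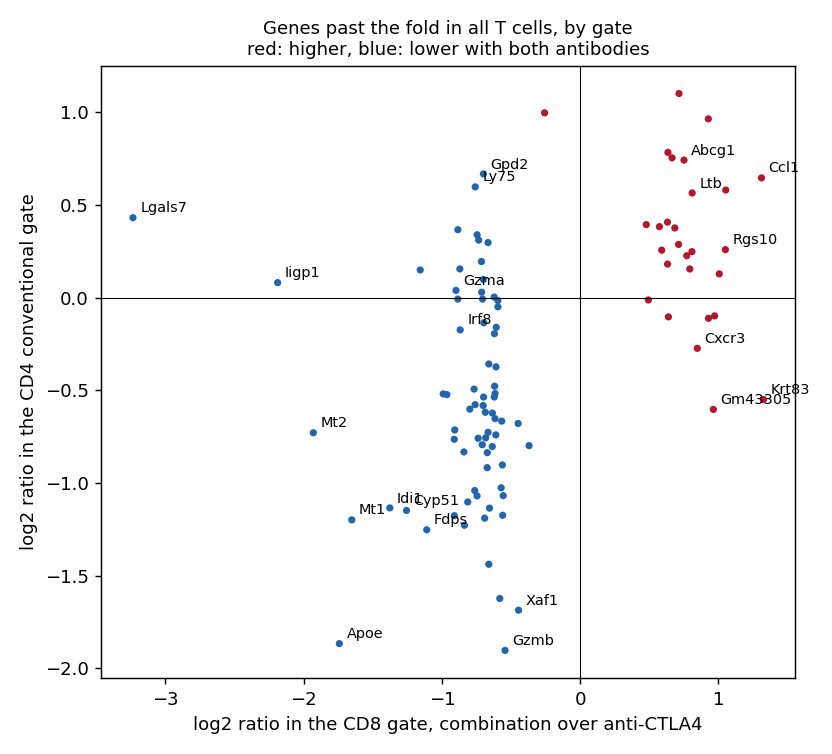
Log2 ratios of combination over anti-CTLA4 in the CD8 gate (x axis) and the CD4 conventional gate (y axis) for the 28 higher (red) and 73 lower (blue) genes past the fold in all T cells that reach 20 CPM in both gates. The sterol genes Idi1, Cyp51 and Fdps are lower in both gates, whereas Cxcr3, Krt83 and Gm43305 have ratios above 1 in the CD8 gate and below 1 in the CD4 gate.

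The lowest ratios belonged to genes that T cells are not known for. Col3a1, a collagen of connective tissue, had 6 UMIs in the combination and 1561 in anti-CTLA4, or 0.155 and 45.6 CPM, and 3 anti-CTLA4 cells held 1490 of them. Sparc, a matrix protein, had 11 and 1415 UMIs, of which 3 anti-CTLA4 cells held 1055. Csn3, the milk protein kappa-casein, was spread more widely, at 5.94 and 54.4 CPM in 222 and 624 cells, as was Lcn2, an iron-carrying protein of epithelium and neutrophils, at 7.67 and 56.5 CPM in 229 and 637 cells. Apoe, a lipid carrier of macrophages, stood at 16.5 and 79.3 CPM and Lgals7, an epithelial galectin, at 28.8 and 89.3 CPM. In cells without tumour or fibroblast markers, Lgals7 turned to a log2 ratio of 0.29, while Csn3 and Apoe had ratios of 0.264 and 0.411. In the CD4 gate Lgals7 was higher in the combination, at 206 and 153 CPM, a ratio of 1.35, against 0.106 in the CD8 gate. Marker sums were lower in the combination for tumour epithelium (21.7 CPM in the combination and 70.9 CPM in anti-CTLA4). The same held for fibroblasts (1.27 and 95.5 CPM, with Pdgfra at 0 in the combination). Col3a1 is itself 1 of the 4 fibroblast markers, with 45.6 of the 95.5 CPM, so its match with that sum is built in. Whether the other genes follow these sums was not tested. Macrophage markers summed to 19.5 and 28.0 CPM. The part of RNA from other cells in other results was not tested beyond the values given.

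The metallothioneins, small proteins that bind zinc, were lower and found in many T cells. Mt1 stood at 76.7 CPM in the combination and 237 CPM in anti-CTLA4, a ratio of 0.323 (0.310 to 0.337), and Mt2 at 17.3 and 61.9 CPM. Mt1 was found in 9.06% (7.93 to 10.3%) of thinned CD8-gate cells of the combination and 22.5% (20.8 to 24.3%) of anti-CTLA4. It was lower in the CD4 gate too, at 62.9 and 144 CPM. With anti-PD1 Mt1 stood at 230.04 CPM and in the remaining 3 libraries at 45.6 to 84.8 CPM, so the anti-CTLA4 and anti-PD1 libraries were both high and the combination was not. Myo10, an unconventional myosin, stood at 24.0 and 65.6 CPM.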

How the data were processed

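T cells were isolated on magnets and made into 3' Chromium libraries, per the labels' protocols. What the authors deposited are unnormalized UMI counts, and the file headers name Cell Ranger 6.0.0 and the labels build GRCm38 (mm10). The 32285 rows carry no names and were named by the row order of the merged tumour table of the series. Row totals of the 6 matrices correlated with that table at 0.954 to 0.982 in the same row, across genes, and at most at 0.354 when shifted by up to 50 rows.

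UMIs were summed over the kept T cells of each library, scaled to CPM of their total, and compared as ratios with exact conditional binomial intervals (95%; shares: Clopper-Pearson). With 1 library per group no test was run. Gates need 1 UMI of the gene; clusters were not made and no doublet caller was run, so doublets remain. Equal gate makeup means averaging both libraries over the gates with the anti-CTLA4 library's shares of UMIs. Thinning left out 35 combination and 30 anti-CTLA4 cells. The calling step was tested on simulated data. The named genes are Pdcd1 and Ctla4, the 12 highest and 12 lowest ratios past the fold (without receptor segments, mitochondrial, ribosomal and predicted genes), the 3 largest absolute ratios of each list, and 5 each way per gate; further genes were named after their values were seen. Some genes that the rule or the lists hold are not reported here. The members, lists and rules were chosen with earlier results of these data known. A bulk table has 12 columns that match no sample and was not used here. Promoters are from RefSeq (GRCm38.p6). Python 3.11.15, numpy 2.4.6, pandas 2.3.3, scipy 1.17.1 and matplotlib 3.10.9 were used.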

Additional observations from a re-analysis of the deposited data

Results flagged for a closer look

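For 3 genes past the fold over all T cells, the CD8 gate and the CD4 conventional gate lay past 1.5-fold on opposite sides. The difference between the gates was not tested, since each has 1 library a side. Gpd2, the mitochondrial glycerol phosphate dehydrogenase, had a log2 ratio of -0.70 in the CD8 gate (38.8 CPM in the combination and 63.0 CPM in anti-CTLA4) and of 0.67 in the CD4 gate (27.2 and 17.1 CPM), a difference of -1.37. Ly75, an endocytic receptor, had -0.76 in the CD8 gate (28.3 and 47.9 CPM) and 0.60 in the CD4 gate (41.1 and 27.2 CPM), a difference of -1.36. The predicted gene Gm43305 had 0.96 in the CD8 gate (49.5 and 25.4 CPM) and -0.60 in the CD4 gate (27.2 and 41.3 CPM), a difference of 1.57.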

How the results depend on the processing

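Counts of genes past the fold, 38 higher and 112 lower, stayed within 1.5 times under most alternatives. They became 79 and 339 with a floor of 5 CPM, 333 and 1910 with a floor of 10 UMIs alone, and 3 and 25 at a fold of 2. Equal gate makeup gave 24 higher genes, and 21 of the 38 and 103 of the 112 had ratios past the fold under it. Weighting cells equally gave 31 and 82, thinning 35 and 135, leaving out dividing cells 28 and 97. Thinning moved the CD8 share to 75.1% in the combination and 76.4% in anti-CTLA4, and the regulatory share to 1.57 and 0.275%; needing 2 UMIs for a gate moved the anti-CTLA4 CD8 share to 84.8%. Among 42 called genes named by the rule, 35 to 42 stayed past the fold under each alternative. Of these, Lgals7 alone turned its direction, to a log2 ratio of 0.29 in cells without tumour or fibroblast markers. That alternative, totals without 3 ribosomal RNA-linked genes (36 higher and 107 lower), and leaving out 10 cells per gene (37 and 82, where genes must reach 20 CPM again; 96 of the 112 ratios stayed past 1.5-fold) were chosen after seeing the data. The regulatory gate of anti-CTLA4 rests on 15 cells, which limits what can be compared there. No paired analysis was possible because each group has 1 library, and for the same reason no replicate could be left out.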

Other observations

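T cell receptor beta segments differed between the libraries in the CD8 gate. Among cells with UMIs of exactly 1 Trbv segment, 527 in the combination and 544 in anti-CTLA4, Trbv2 was carried by 32.8% (28.8 to 37.0%) of the combination and 24.6% (21.1 to 28.5%) of anti-CTLA4. Trbv29 was carried by 18.2% (15.0 to 21.8%) and 26.8% (23.2 to 30.8%), and Trbv13-2 by 2.66% (1.46 to 4.42%) and 7.90% (5.78 to 10.5%). In the other libraries Trbv2 was at 8.08% with anti-PD1, 3.00% with IgG, 15.9% at 48 h after doxorubicin and 5.29% untreated. The constant gene Trbc1 stood at 666 CPM in the CD8 gate of the combination and 350.0 CPM in that of anti-CTLA4, while Trbc2 stood at 1603 and 1541 CPM; the 2 genes are close copies, so reads may be split between them. These shares describe 1 library each, and cells of 1 clone are not independent. Tcrg-C2, a gamma chain constant gene, stood at 92.0 and 46.9 CPM in the same gate.

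Ifitm1, an interferon-induced membrane protein gene that was on none of the lists, went the other way from the interferon lists. It stood at 486 CPM in the combination and 309 CPM in anti-CTLA4, against 83.9 to 195 CPM in the other 4 libraries. In thinned CD8-gate cells it was found in 22.9% (21.2 to 24.6%) of the combination and 15.7% (14.2 to 17.3%) of anti-CTLA4. Ifitm3, of the same gene family, was lower past the fold, with a ratio of 0.541. Its ratio was 1.03 in cells without tumour or fibroblast markers.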
